A study of Mus musculus with 24 samples.

Results

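The comparison described here is the induction of DUX in WT mouse embryonic stem cells whose titles do not carry pLV2: 2 libraries after 16 h of doxycycline (DOX) were set against 2 libraries without it. These 4 libraries, chosen by their titles, are part of 24. The cells are of the KH2 line, a mouse embryonic stem cell line built for DOX-inducible transgenes. Both groups carry the DUX transgene behind a DOX-responsive promoter (TRE), so the uninduced libraries are cells with the same transgene and not cells without it, and no cells that lack it were analysed here. No group of cells treated with DOX but lacking the transgene was analysed here either, so effects of DUX and of DOX itself cannot be told apart. The other groups used below, DUXBL-KO and the WT pLV2 lines 1 and 2, carry the same transgene and had the same 16 h of DOX, and no label explains pLV2. TRIM24-KO and TRIM33-KO pLV2 libraries, with and without the same DOX, enter only the fit over all 24 libraries, where they share in the estimate of spread. RNA was depleted of ribosomal RNA and read as 75 bp pairs. The labels do not say that the 2 libraries of a group came from separate cultures, so p-values measure only the spread between these libraries, which may be technical.

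DUX is a double homeobox transcription factor that is made in the mouse embryo around the time the embryo's own genome is first switched on. It binds the long terminal repeat (LTR) of the endogenous retrovirus MERVL, a repeat subfamily group that is transcribed in 2-cell embryos, and many genes of that stage start from or near such LTRs. Embryonic stem cell cultures hold rare cells in a similar state, called 2-cell-like cells, and forced expression of DUX is known to bring many cells into it.

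Gene counts were 12788738 and 15359989 in the libraries without DOX and 17105429 and 18026362 in those with DOX. Levels are given as CPM, counts scaled to a common total of gene counts and adjusted for composition, replicate 1 before replicate 2. The stem cell label held: Pou5f1, a core pluripotency factor, was at 696 and 698 CPM without DOX and 680 and 713 CPM with DOX. Of 19 fibroblast markers, listed because the protocols name feeder cells as an alternative, 12 were tested and none of these passed. The summed level of the list was 1579 and 1446 CPM without DOX against 1534 and 1428 CPM with DOX. Postn and Lum, which mark fibroblasts, were at 0 counts in all 4 libraries, while most of the sum was Fn1, a matrix gene that stem cells also express.

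Dux, named Duxf3 in the annotation, was at 0 counts in both libraries without DOX and at 23 and 20 counts with DOX, or 1.38 and 1.09 CPM. It was at least 5.96-fold higher against a floor of 3 counts in each uninduced library (adjusted p = 0.0331, edgeR's quasi-likelihood test). A count table does not separate transgenic from endogenous Dux transcripts, and how many transgene reads the annotated gene can take up is unknown. Duxbl1, which encodes a DUX-like homeobox protein, was at 1.86 and 0.364 CPM without DOX and at 8.34 and 3.23 CPM with DOX, and did not pass (adjusted p = 0.281). It passed when the replicate number entered edgeR as a block (adjusted p = 0.00236). Duxbl3 was at 0.31 and 0.486 CPM without DOX and 1.98 and 0.328 CPM with DOX (adjusted p = 0.75), and its groups overlapped. Duxbl2 was too low to be tested. Of the other 9 tested members of a 20-gene list of double homeobox, Obox and related homeobox genes, none passed.

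Across the 18060 genes tested, 517 rose with DOX, which is 2.86% of them, and 21 fell, which is 0.116%. Of the 517 genes, 394 had 3 counts or fewer in each library without DOX, and 278 of these had 0 in both. Genes at that level had no room to fall. Among 5537 tested genes between 1 and 10 CPM without DOX, 38 rose and 2 fell. Among 7102 between 10 and 100 CPM without DOX, 34 rose and 17 fell, and among 2194 above 100 CPM, 3 rose and 2 fell. For the 278, the rise was at least 2.75-fold to at least 1785-fold, with a median lower bound of 23.4-fold. The other 123 were already counted without DOX and rose by a median log2 fold change of 2.59. For comparison, 41.1% of all tested genes had DOX libraries that did not overlap those without DOX, so lack of overlap alone singles out few of them. The number of calls depended on the uninduced libraries and on how the spread was estimated. Without uninduced replicate 1, 117 genes were called, 114 of them among the 538, and without uninduced replicate 2 only Gm5580 and Gm8994 were. With the replicate number as a block, 929 genes were called (797 up, 132 down), all 538 among them. A fit on the 4 WT libraries alone, which has 2 residual degrees of freedom, called Gm5580 alone (1708 genes at an unadjusted p under 0.05). All 538 genes kept their direction in each of the fits that left out 1 library. None of the 538 had overlapping groups, so leaving out 1 library could hardly reverse a direction.

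**Figure D1:**
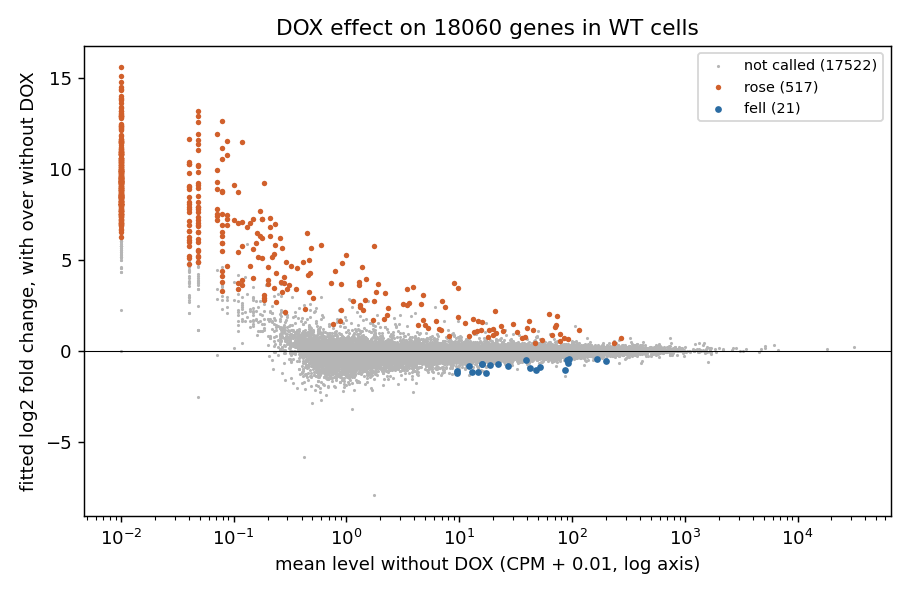
The plot shows each tested gene by its mean level without DOX (CPM plus 0.01, log axis) and its fitted log2 fold change with DOX, coloured by call (edgeR, adjusted p under 0.05). The 517 genes that rose crowd at the left, at levels near 0, where fitted values depend on the prior count and are no measure of size, and the 21 that fell lie between 9.53 and 200 CPM.

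The Zscan4 genes encode zinc finger and SCAN domain proteins of 2-cell embryos that are known for their part in telomere maintenance. All 6 tested members rose, against 2.86% of all genes. All 6 had 3 counts or fewer in each uninduced library. They entered the test through other libraries, so the filter on low counts partly set this share. Their summed level was 0.31 and 0.243 CPM without DOX and 2991 and 1258 CPM with DOX. Zscan4c had 2 and 1 counts without DOX, and stood at 449 and 189 CPM with DOX (adjusted p = 0.00232). Its ratio of pooled counts was 3062-fold, with an exact 95% counting interval of 1048 to 14851. Zscan4d had 1 and 0 counts without DOX and 559 and 230 CPM with DOX (adjusted p = 0.00232). Zscan4e, at 0 counts in both uninduced libraries, reached 517 and 223 CPM, at least 1785-fold higher (adjusted p = 0.0039). Per kilobase of exon, the mean levels of the 6 with DOX lay between 140 and 214 CPM. Members of this and the next 4 families are near-identical copies, so their counts may be shared or split between copies in ways the tables do not show.

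The Tcstv and Tdpoz genes are families of 2-cell transcripts, and 11 of 12 tested members rose. Tcstv3 had 0 and 1 counts without DOX and 83.4 and 27.0 CPM with DOX, a 1582-fold ratio of pooled counts (exact 95% counting interval 284 to 62526, adjusted p = 0.0039). Tdpoz4, at 0 in both uninduced libraries, reached 33.8 and 14.3 CPM (adjusted p = 0.00461). Tdpoz5 was the member that did not pass (adjusted p = 0.70). Among the deubiquitinase genes, the 5 Usp17l copies rose, and Usp26 and Usp29 did not pass (adjusted p = 0.99 and 0.95). Usp17lc went from 1 count in each uninduced library to 166 and 62.4 CPM (adjusted p = 0.00333). All 14 tested genes of the 15 that encode proteins like the translation initiation factor EIF1A rose, with levels from 8.52 to 371 CPM in DOX replicate 1 and from 3.66 to 148 CPM in replicate 2. Gm5662 was the highest of these, at 1 and 0 counts without DOX (adjusted p = 0.00232). All 14, and all 12 tested Tcstv and Tdpoz genes, had 3 counts or fewer in each uninduced library. They too entered the test through other libraries, so the filter partly set the shares that rose. Of 23 Pramef and Pramel genes, a family of leucine-rich repeat proteins of the germ line and early embryo, 15 were tested and 9 rose. Pramef25 went from 0 counts to 162 and 69.1 CPM (adjusted p = 0.0039). Pramel6 and Pramel7, which are known from pluripotent cells, did not pass (adjusted p = 0.38 and 1.00).

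Of 30 other genes known from 2-cell embryos or 2-cell-like cells, 28 were tested and 14 rose. Some of these have copies too, such as AF067061, which lies beside the Tcstv genes, and the pair Cphx1 and Cphx2. Zfp352, a zinc finger gene of the 2-cell stage, had 0 and 1 counts without DOX and 77.0 and 27.0 CPM with DOX (adjusted p = 0.0039). Tmem92, which encodes a membrane protein, went from 1 count in each library to 260 and 89.0 CPM (adjusted p = 0.0039). Sp110, a nuclear body gene also listed among the interferon genes, went from 3 and 2 counts to 154 and 66.6 CPM (adjusted p = 0.00241). Lmx1a, a homeobox gene of the developing brain, reached 26.5 and 10.9 CPM from 1 and 3 counts (adjusted p = 0.00418). The 14 that did not pass include Snai1, at 1.63 and 1.09 CPM without DOX and 9.60 and 3.66 CPM with DOX (adjusted p = 0.0599). With the replicate block 18 rose, Snai1 among them (adjusted p = 0.00872 in edgeR).

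**Figure D2:**
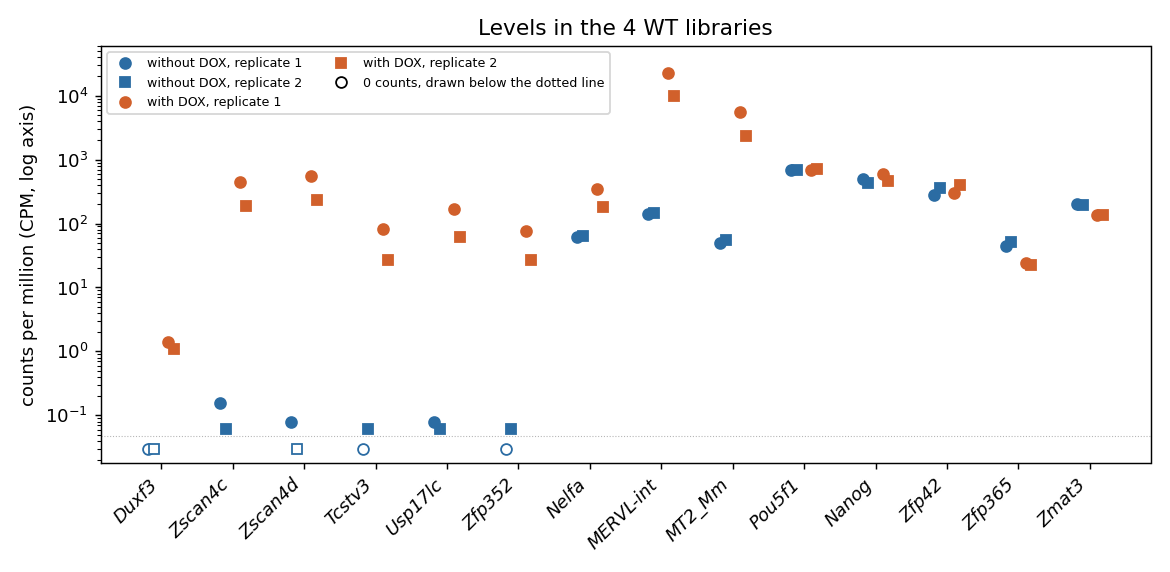
The plot gives the CPM of 14 named genes and repeat subfamilies in each WT library on a log axis, with open symbols for 0 counts. The 2-cell genes and the MERVL pair rise from near 0 or a low level, with DOX replicate 1 above replicate 2, while the points of Pou5f1, Nanog and Zfp42, which did not pass the test, lie close together.

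The genes that passed with the smallest p, a mean of at least 50 counts and no overlap included less known ones. Gm5580 went from 1 and 2 counts to 55.7 and 37.3 CPM, a 451-fold ratio of pooled counts (exact 95% counting interval 154 to 2188, adjusted p = 0.000646). Gm8994 was at 0 counts in both uninduced libraries and at 137 and 80.4 CPM with DOX, at least 524-fold higher (adjusted p = 0.00232). Usp9y, the Y-linked copy of a deubiquitinase gene, was at 0.31 and 0.486 CPM without DOX and 14.5 and 10.5 CPM with DOX, a 30.1-fold rise (adjusted p = 0.00232). It was the only gene called of 6 tested on a list of 12 Y-linked genes: Ddx3y, Uty and Eif2s3y did not pass (adjusted p = 0.97, 1.00 and 0.81). Over the whole Y chromosome 10 genes were tested and 2 rose, and the second was the pseudogene Gm28597, which went from 0 counts to 20 and 15 counts (adjusted p = 0.0397). The genes annotated as pseudogenes Zscan4a, Gm5576 and AC127331.6 and those annotated as protein coding Zscan4-ps3, Zscan4c, Zscan4d and Gm5662 made up the other 7 of the 10 genes with the smallest p.

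Genes annotated as encoding no protein were common in the response. Protein-coding genes were 50.9% of the genes that rose and 77.6% of those tested. Against the 2.86% of all tested genes that rose, 40 of 160 unprocessed pseudogenes did, 66 of 566 long intergenic RNAs, 80 of 871 processed pseudogenes and 27 of 369 antisense genes. Whether counting used strand is not given in the sources used here, so the antisense genes and their partners cannot be told apart.

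Many risen genes lay in clusters. Positions are of the mm10 build. In the 1 Mb windows that begin at 87 and 88 Mb of chromosome 12, which hold Eif1a-like copies, 19 of 40 and 14 of 18 tested genes rose. On chromosome 7, all 10 tested genes that start between 11 and 12 Mb rose, from 11005745 to 11614112, and these are Zscan4 genes and pseudogenes with their neighbours. On chromosome 3, 11 of 20 and 11 of 28 tested genes rose in the windows from 93 and 94 Mb, where the Tdpoz genes lie. On chromosome 13, all 8 tested genes between 120140246 and 120318178 rose, among them Tcstv3. On chromosome 1, 8 of 16 rose in the window from 85 Mb, which holds Sp110 and Sp140. These windows were picked after their counts were seen, and neighbours in them share sequence.

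The best known DUX sites hold the letters GATTNAATC, which read the same on both strands. In the RefSeq promoters of build GRCm38.p6, taken as 250 bases before to 50 after each gene's start, these letters were present in 83 of 27025 genes (0.307%) and in 31 of the 11408 tested genes with an entry (0.272%). They were present in 11 of the 185 risen genes with an entry (5.95%) and in 0 of the 15 fallen ones. Of the 31 tested genes with the letters, 11 rose (35.5%). Of these 11, 10 were at the floor of counts without DOX. Those 10 entered the test through other libraries, so the filter on low counts partly set this share. Among risen genes with an entry, the letters were present in 10 of 109 at the floor (9.17%) and in 1 of 76 above it (1.32%). The 11 include Dux itself, whose reads cannot be told apart from those of the transgene. Only 185 of the 517 risen genes had an entry, and several of the 11 are copies of each other, so they do not count as independent sites. A match is a description of sequence and not a measured site, and LTRs inside genes or further away were not searched. The windows of 7 of the 11 are printed on the gene's strand to show the 9 letters, in capitals, with 16 bases on each side, and how alike some windows are.

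Gm4340, chr10:104193880-104193920, plus strand: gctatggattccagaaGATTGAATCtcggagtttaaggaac
Gm33248, chr7:129667253-129667293, plus strand: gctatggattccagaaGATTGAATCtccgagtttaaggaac
Gm35974, chr16:3468301-3468341, plus strand: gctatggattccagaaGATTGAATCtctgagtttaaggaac
Esp24, chr17:39036510-39036550, plus strand: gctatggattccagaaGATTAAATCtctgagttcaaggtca
AF067061, chr13:120262954-120262994, plus strand: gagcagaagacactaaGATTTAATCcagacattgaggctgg
Gm13043, chr4:143511191-143511231, plus strand: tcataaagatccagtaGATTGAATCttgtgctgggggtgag
Duxf3, chr10:58233204-58233244, minus strand: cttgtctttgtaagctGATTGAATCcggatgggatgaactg

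The windows of Gm33248 and Gm35974, on 2 other chromosomes, matched that of Gm4340 in 40 of 41 bases each, and that of Esp24 matched in 35. AF067061 and Gm13043 matched in 19 and 21, so the shared letters there sit in other surroundings. The genes had different levels with DOX. Gm4340, an Eif1a-like gene, was at 259 and 92.2 CPM, Gm35974, an intergenic RNA, at 21.3 and 8.92 CPM, and Gm33248, an RNA within an intron, at 3.54 and 2.30 CPM. All 3 had 0 counts in both uninduced libraries. AF067061, a neighbour of the Tcstv genes, was at 86.1 and 31.9 CPM and Gm13043, a Pramef-like gene, at 83.1 and 33.1 CPM, both also from 0 counts.

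Genes that were already expressed rose by less. Nelfa, a subunit of the negative elongation factor that is known to act upstream of Dux, was at 61.5 and 64.6 CPM without DOX and 352 and 179 CPM with DOX, a 4.21-fold rise (log2 2.07 ± 0.28 SE, adjusted p = 0.0105). Dppa2, which is known to activate Dux, went from 96.3 and 74.9 CPM to 157 and 127 CPM (1.66-fold, adjusted p = 0.0496). With Zscan4c these were the 3 genes that passed of 12 tested activators of the 2-cell state. The next 4 genes were chosen after their values were seen, for their levels without DOX. Cwc22, a splicing factor that joins the exon junction complex, went from 77.1 and 68.9 CPM to 349 and 202 CPM (adjusted p = 0.00702). Gpbp1l1 went from 112 and 119 CPM to 300 and 215 CPM (adjusted p = 0.013). Ctr9, a subunit of the PAF1 elongation complex, went from 82.2 and 75.6 CPM to 171 and 127 CPM (adjusted p = 0.031). Aqr, a spliceosome helicase, went from 271 and 276 CPM to 518 and 388 CPM (adjusted p = 0.0381).

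The 2 DOX libraries were unlike each other in the risen genes. Of the 517, 510 had a higher CPM in replicate 1 than in replicate 2, with a median of 2.24-fold, a median log2 ratio of 1.16, while over all tested genes the median log2 ratio between these libraries was 0.02, and 0.27 over those below 1 CPM without DOX. The ratio was smaller for genes that were expressed beforehand: the median was 2.31-fold for the 442 genes below 1 CPM without DOX, 1.97-fold for 38 genes between 1 and 10 CPM, 1.40-fold for 34 between 10 and 100 CPM and 1.34-fold for 3 above. A level present before DOX pulls such a ratio toward 1, so these medians do not compare the RNA that was added. Dux itself was 1.26-fold higher, on 23 against 20 counts. In bulk RNA, fewer responding cells and less RNA of these genes per cell cannot be told apart. Over all 18060 tested genes, deviations from the group means correlated at 0.35 between same-numbered WT and DUXBL-KO libraries with DOX. What the replicate number marks is not given. The largest ratios among risen genes with a mean of at least 50 counts were those of Gm7978 (9.42 against 2.57 CPM), Gm16239, Gm3147, AU019990, Gm11544 and Gm7104, from 3.35-fold to 3.66-fold. The smallest ratio was that of Hist4h4, which encodes a histone H4, at 0.976-fold (80.6 against 82.6 CPM). Among the next smallest was Pspc1, which encodes a paraspeckle protein, at 1.08-fold (121 against 112 CPM). Over the libraries without DOX, Hist4h4 rose by 1.52-fold and Pspc1 by 1.49-fold.

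**Figure D3:**
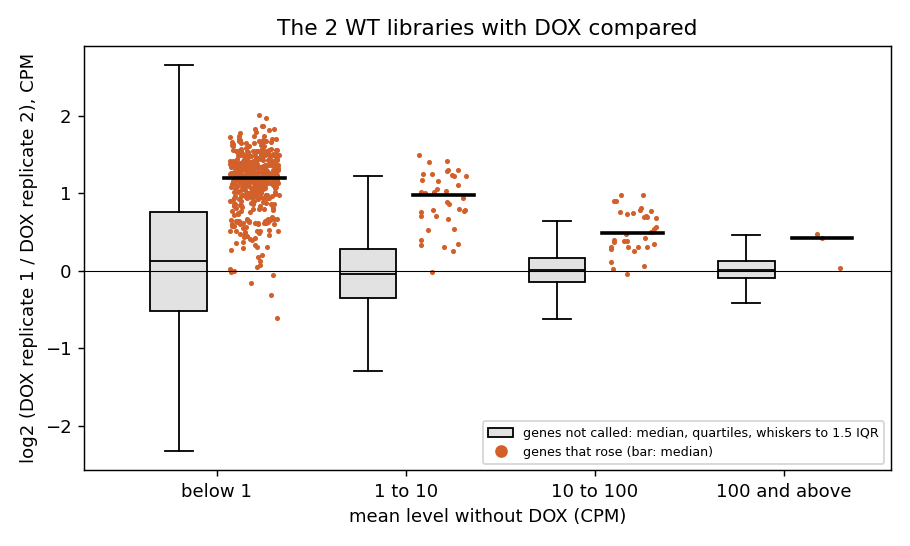
The plot shows the log2 ratio of DOX replicate 1 to replicate 2 in bins of the level without DOX, with points for risen genes, bars at their medians and boxes for genes not called. Of the 517 risen genes, 510 lie above 0, with medians that fall from 1.21 to 0.42, while the boxes straddle 0.

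The 21 genes that fell did so by less, by log2 0.42 to 1.21, and 19 were protein coding. Their 2 DOX libraries were alike, with a median log2 ratio of 0.04 and 12 of 21 higher in replicate 1. Zfp365, a zinc finger gene, was at 44.7 and 51.8 CPM without DOX and 24.4 and 22.4 CPM with DOX (log2 -1.05 ± 0.15 SE, adjusted p = 0.0125). Lpin1, a phosphatidate phosphatase of lipid synthesis, went from 49.97 and 53.7 CPM to 25.1 and 31.2 CPM (adjusted p = 0.0215). Mmrn2, an extracellular matrix gene of vessels, went from 17.8 and 17.1 CPM to 6.66 and 8.53 CPM (adjusted p = 0.026). Ptpn14, a phosphatase that restrains YAP, went from 88.6 and 86.5 CPM to 47.0 and 39.2 CPM (adjusted p = 0.0375). Mcam and Itgb4, adhesion genes, fell as well (adjusted p = 0.0355 and 0.0364), as did She, an adaptor gene, and the intergenic RNA Gm16211 (adjusted p = 0.0366 and 0.0349).

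Zmat3 and Phlda3, both targets of p53, completed the 10 falling genes with the smallest p. Zmat3 was at 202 and 198 CPM without DOX and 135 and 137 CPM with DOX (log2 -0.55 ± 0.09 SE, adjusted p = 0.0243). Phlda3 went from 24.8 and 29.3 CPM to 15.8 and 14.7 CPM (adjusted p = 0.0252). They were the 2 called of 25 tested on a list of p53 targets and apoptosis genes, where 0.116% of all tested genes fell. Of these 25, 22 had lower fitted values with DOX, against 9403 of all 18060 tested genes. The median log2 of the list was -0.26, where that of all tested genes was -0.01. Cdkn1a, the cell cycle inhibitor p21, was at 24.8 and 25.8 CPM without DOX and 16.9 and 17.9 CPM with DOX (adjusted p = 0.137), and Mdm2 was at 133 and 123 against 106 and 94.0 CPM (adjusted p = 0.356). Pmaip1, an apoptosis gene, had the highest fitted value of the list, at 44.8 and 54.0 CPM without DOX and 94.9 and 73.6 CPM with DOX (adjusted p = 0.0687). With the replicate block Pmaip1 passed as higher (adjusted p = 0.0302 in edgeR) and Bbc3, another apoptosis gene, as lower.

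Other programmes held few or no calls, against the 2.98% of all genes called in either direction. None of 19 pluripotency genes passed: Nanog was at 502 and 434 CPM without DOX and 590 and 466 CPM with DOX (adjusted p = 0.894), and Zfp42 at 276 and 355 against 298 and 396 CPM (adjusted p = 0.924). None of 36 chromatin repressors of the 2-cell state passed, and 28 had higher fitted values, against 8656 of all 18060 tested genes, with a median log2 of 0.10. Uhrf1, which guides maintenance of DNA methylation, had the smallest p among them, at 439 and 448 against 588 and 554 CPM (adjusted p = 0.124, or 0.0372 with the replicate block). No gene passed among 13 DNA methylation genes, 20 of ribosomal RNA synthesis, 29 of the cell cycle, 21 of glycolysis, 22 of splicing, 22 of TGF-beta signalling, 11 of retinoic acid signalling, 23 of LIF, FGF and Wnt response, 15 encoded in mitochondria, 5 trophectoderm and 6 primitive endoderm markers. With the replicate block, Uhrf1, Taf1d, Ccne2, Pcna, Rbm25 and Rxra of these lists passed as higher and Fgfr1 as lower. Among 21 stress genes, the near-identical heat shock genes Hspa1b and Hspa1a rose, from 5.59 and 3.95 CPM to 18.7 and 12.96 CPM and from 1.47 and 1.34 CPM to 8.46 and 4.98 CPM (adjusted p = 0.0191 and 0.0317). Of 15 tested interferon and sensing genes Sp110 alone passed.

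Repeat subfamilies are counted over all their copies. They took 10.2% and 10.6% of all counts without DOX and 13.2% and 11.9% with DOX. Without MERVL-int, the internal part of MERVL, and MT2_Mm, its LTR, the shares were 10.2%, 10.6%, 10.8% and 10.8%. Of 981 subfamilies tested, 88 rose (8.97%) and 0 fell. In edgeR, 249 had an unadjusted p under 0.05, and in DESeq2 138 rose and 0 fell. The groups did not overlap in 59.3% of all tested subfamilies. Without induced replicate 1, 24 subfamilies were called, 23 of them among the 88, and without induced replicate 2, 168 were, all 88 included. Without either uninduced replicate, only MERVL-int and MT2_Mm were called. With the replicate block 152 rose, all 88 included, and ERV1, ERVK and ERVL-MaLR held 16, 58 and 19 of these. All 88 were higher in DOX replicate 1 than in replicate 2, by a median of 1.48-fold.

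MERVL-int rose from 141 and 148 CPM to 23000 and 9902 CPM, a 114-fold change (log2 6.83 ± 0.44 SE, adjusted p = 0.000503). MT2_Mm rose from 49.3 and 55.2 CPM to 5505 and 2358 CPM, 75.2-fold (adjusted p = 0.000503). Together they held 0.169% and 0.184% of repeat counts without DOX and 18.2% and 9.17% with DOX. Of 95 ERVL subfamilies 15 rose (15.8%, against 8.97% of all subfamilies). MERVL_2A-int, a relative of MERVL, went from 113 and 120 CPM to 639 and 338 CPM and ERVL-B4-int from 17.6 and 14.9 to 53.3 and 35.4 CPM (adjusted p = 0.012 for both). Of 90 ERVL-MaLR subfamilies, which are older LTR elements, 10 rose (11.1%), not far from the share of all. ORR1A1-int went from 56.3 and 57.2 CPM to 265 and 147 CPM (adjusted p = 0.012), and MLT1L, MT-int and ORR1A3-int rose by log2 1.21, 1.59 and 1.06.

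Among other LTR classes, 9 of 106 ERV1 (8.49%) and 27 of 270 ERVK subfamilies (10%) rose, near the 8.97% of all subfamilies. RLTR6B_Mm, an ERV1 LTR, went from 11.2 and 8.99 CPM to 238 and 102 CPM (16.9-fold, adjusted p = 0.0094), and its internal part RLTR6-int from 43.1 in both to 393 and 189 CPM (adjusted p = 0.012). MuRRS-int and MER89 rose by 5.08-fold and 2.51-fold (adjusted p = 0.012 and 0.0173). ERVB4_1B-I_MM-int, an ERVK element, went from 7.60 and 6.56 CPM to 45.8 and 25.9 CPM (adjusted p = 0.0094), and IAPLTR4, ERVB4_2-LTR_MM and RLTR9A3A rose by 10.7-fold, 10.3-fold and 10.7-fold from levels of 1.71 CPM or less. IAPEz-int, the internal part of the active IAP elements, was at 406 and 443 CPM without DOX and 621 and 484 CPM with DOX and did not pass (adjusted p = 0.31).

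Of 129 LINE-1 subfamilies 23 rose (17.8%, against 8.97% of all subfamilies). Those with the smallest p were Lx elements, older members of the family: Lx3A went from 35.5 and 33.2 CPM to 105 and 74.0 CPM (adjusted p = 0.012), and Lx2A, Lx2A1 and Lx3_Mus rose by 3.69-fold, 3.29-fold and 2.56-fold. L1Md_T, a young and active subfamily, was at 2386 and 2533 CPM without DOX and 2838 and 3453 CPM with DOX (adjusted p = 0.126). X7C_LINE, of the CR1 family, was 1 of 2 risen among the 23 other LINE subfamilies, at 1.40 and 1.70 against 13.6 and 9.19 CPM (adjusted p = 0.012). None of 35 SINE subfamilies passed: B2_Mm1a was at 4573 and 3072 CPM without DOX and 6178 and 4451 CPM with DOX (adjusted p = 0.217). With the replicate block B2_Mm1a (adjusted p = 0.0442 in edgeR) and B2_Mm1t passed. Of 176 DNA transposons Tigger17a and MER63C rose, by 1.71-fold and 2.38-fold. GSAT_MM, the major satellite of pericentromeres, was at 70.7 and 18.5 CPM without DOX and 307 and 148 CPM with DOX, without overlap, but did not pass (adjusted p = 0.0792). It passed once the replicate number was a block (adjusted p = 0.00164). Positions of repeat copies were not used here, so reads of copies inside the risen genes and reads of free-standing copies cannot be told apart.

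The DOX effect in WT was compared with that in the WT pLV2 lines, which share no library with it, in a fit over all 24 libraries. These lines differ from WT in pLV2, are separate lines, and have libraries that were deposited at another time. The effects of these differences cannot be told apart. The mean effect of both pLV2 lines differed from the WT effect in 39 of 19021 genes (0.205%): it was higher in 37 and lower in 2. Of the 39, 13 had risen in WT and 2 had fallen. In 19 of the 37, all 4 uninduced pLV2 libraries were below both uninduced WT libraries, as in 2668 of all 19021 genes, and in 29 all 4 induced ones were above both induced WT libraries, as in 3654 of all. Since the 37 were called for a higher pLV2 effect, which a low start or a high end gives, these counts are a description. With the replicate block 30 of the 39 passed, and no others. Leaving out WT libraries moved this count between 7 and 134: it was 134 when induced replicate 1 was left out, 11 for induced replicate 2, 12 for uninduced replicate 1 and 7 for uninduced replicate 2. Most 2-cell genes start from 0 to 3 counts, where a difference of fold changes is poorly fixed, so their levels with DOX are given side by side, on the scale of the fit over 24 libraries. Zscan4c was at 397 and 167 CPM in WT, 367 and 445 CPM in line 1 and 1374 and 965 CPM in line 2. Duxf3 was at 1.22 and 0.966 CPM in WT, 7.72 and 8.95 CPM in line 1 and 4.80 and 4.27 CPM in line 2, so both WT libraries were below all 4 others in Dux.

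Levels in the next sentences are on the same scale. Among genes expressed beforehand, Cbl, a ubiquitin ligase, had the smallest p: it was at 203 and 228 CPM without DOX and 320 and 276 CPM with DOX in WT, while line 1 went from 172 and 165 CPM to 487 and 522 CPM. Its pLV2 effect exceeded the WT effect by log2 1.08 ± 0.12 SE (adjusted p = 0.00171). Nelfa, with an effect of log2 3.07 in line 1 and 3.84 in line 2, also differed (adjusted p = 0.0409), though not with the replicate block (adjusted p = 0.0581). Fgf1, a growth factor on the list of 30 other 2-cell genes, differed by log2 2.45 (adjusted p = 0.00723). Zfp365 and Ptpn14, which fell in WT, had effects of -0.10 and -0.19 in line 1 and 0.20 and 0.06 in line 2, and these differences passed (adjusted p = 0.00723 and 0.0414). Zfp365 was at 39.4 and 45.6 CPM without DOX in WT but at 17.1 to 21.2 CPM in the uninduced pLV2 lines. Ptpn14 was at 78.1 and 76.1 CPM in uninduced WT against 35.9 to 57.5 CPM in the uninduced pLV2 lines. The falls of both in WT thus started from a higher level.

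The difference was wider in repeats, and there the pLV2 lines also started lower. Of 990 subfamilies, 500 (50.5%) had a higher pLV2 effect and 0 a lower one, and the median difference of all was log2 0.62. Repeats took 7.58% to 8.09% of all counts in the 4 uninduced WT pLV2 libraries, against 10.2% and 10.6% in uninduced WT. Uninduced DUXBL-KO, without pLV2, held 9.90% and 11.8%, and the uninduced TRIM24-KO and TRIM33-KO pLV2 libraries 7.58% to 8.28%. All 4 uninduced WT pLV2 libraries were below both uninduced WT libraries in 479 of the 990 subfamilies (48.4%) and in 323 of the 500. With DOX, both libraries of line 1 were above both WT libraries in 342 of the 990 and 252 of the 500, and both of line 2 in 683 and 466. The 500 were chosen by the difference that these levels make up, so their counts are a description.

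The 2 lines were unlike each other, and the difference of each from WT was not tested alone. MERVL-int differed by log2 1.25 ± 0.33 SE (adjusted p = 0.00569), with an effect of log2 6.84 in WT, 7.10 in line 1 and 9.08 in line 2. Its level with DOX was 20342 and 8746 CPM in WT, 17312 and 21270 CPM in line 1 and 61738 and 48524 CPM in line 2, so line 1 overlapped WT and line 2 did not. GSAT_MM differed by log2 3.31 (adjusted p = 0.000593). It was at 62.3 and 16.3 CPM in uninduced WT and at 4.6 to 8.18 CPM in the uninduced pLV2 lines. With DOX it was at 272 and 131 CPM in WT, 209 and 273 CPM in line 1 and 485 and 320 CPM in line 2. B2_Mm1a, at 4028 and 2702 CPM in uninduced WT, was at 1859 to 2475 CPM in the uninduced pLV2 lines. SINE subfamilies, none of which passed in WT, held 26 called differences of 35. The median difference of all genes was near 0, at log2 0.001. For the 517 genes that rose in WT the median was log2 0.58, and 355 had a higher pLV2 effect. Most of these start near 0 counts, where a difference of fold changes is poorly fixed. For the 88 repeat subfamilies that rose in WT the median was log2 1.12, and 87 had a higher pLV2 effect.

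**Figure D4:**
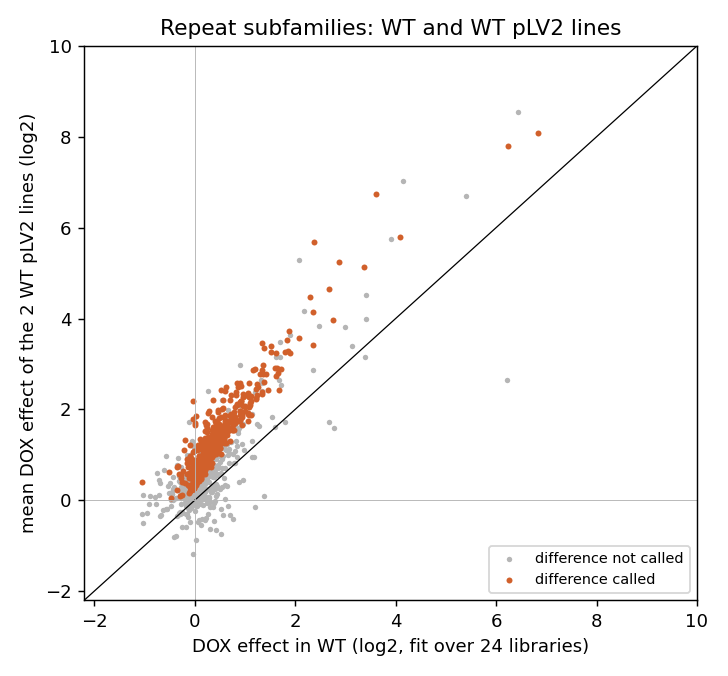
The plot sets the DOX effect of each repeat subfamily in WT against its mean effect in the 2 WT pLV2 lines, both as log2 from the fit over 24 libraries, with the line of equal effect. The 500 coloured subfamilies, whose difference passed the test, all lie above that line.

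The DOX effect of DUXBL-KO minus that of WT, tested within the 8 libraries of this set, passed in 0 of 18060 genes and 0 of 981 repeat subfamilies with edgeR, where 97 genes (0.537%) and 18 subfamilies (1.83%) had an unadjusted p under 0.05, and in 1 gene, Mgll, and 0 subfamilies with DESeq2. Both effects share 1 estimate of spread but no library. With DOX, MERVL-int was at 33329 and 29695 CPM in DUXBL-KO and 20342 and 8746 CPM in WT, on the scale of the fit over 24 libraries. Duxf3 was at 4.39 and 2.51 CPM in DUXBL-KO, again above both WT libraries. Duxbl1 was at 9.89 and 4.39 CPM in DUXBL-KO with DOX, against 7.38 and 2.85 CPM in WT with DOX. The counts of Duxbl1 thus do not by themselves show the loss that the label names. These values were not shown to differ in response, and the test does not show that they are alike.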

How the data were processed

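Each deposited table holds raw counts per gene and per repeat subfamily for 1 library, as whole numbers, per the file headers. The submitters' processing notes name bcl2fastq 2.20.0, cutadapt 1.18, STAR 2.7.6a and the mm10 build, with no role or order. The counting tool, its strand setting and its handling of multi-mapped reads are not given in the sources used here, and they decide how copies of a family and of a repeat share counts. Groups came from the titles. The treatment tags disagree with the titles in 8 pLV2 libraries, where the titles were followed.

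Symbols came from GENCODE release M21, in which 54349 gene IDs were found with their version, 792 without it and 346 not at all. Counts were fitted with edgeR 4.0.16 in R 4.3.3 (quasi-likelihood, 2-sided), with 1 mean per group, TMM factors from genes and filterByExpr by group. The fit for DOX in WT used the 8 libraries of WT and DUXBL-KO, which share the estimate of spread (common coefficient of variation 17.6%); the comparison with the pLV2 lines used all 24. Benjamini-Hochberg adjustment ran over genes and over repeat subfamilies separately, with a threshold of 0.05. The fit for DOX in WT was also run on simulated counts with known changes. Nothing in the labels explains the replicate numbers of the titles. Deviations of same-numbered libraries from their group means correlated at 0.25 to 0.55 over the 6 pairs of groups in the set of 8, across 18060 genes, which are not independent, so values with the number as a block are given for named results whose call they change. An exact permutation test on 2 against 2 libraries cannot go below p = 0.333 and was not used.

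CPM uses effective library sizes. A fold against 0 counts in both uninduced libraries is a lower bound over 3 counts in each; against 1 to 3 counts it is the ratio of pooled counts with an exact 95% interval. Intervals and floors cover counting error only, since reads carry no molecular identifiers. The alternatives were DESeq2 1.42.0, RLE factors, library sizes with repeats, no filter or a filter at a mean of 10 counts, the 4 WT or all 24 libraries in the fit, a block for the replicate number, a log2 fold change of at least 1, and leaving out each WT library.

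The comparison, the 26 gene lists and the alternatives were chosen with earlier results of these data known. Named were a fixed set (Dux, Duxbl1 to Duxbl3, Zscan4c, Zscan4d, Zfp352, Tcstv3, Pou5f1, Nanog, Zfp42, GSAT_MM, MERVL-int, MT2_Mm, IAPEz-int and L1Md_T), the 10 genes with the smallest p in each direction among those with no overlap and a mean of at least 50 counts, up to 6 members per list, up to 4 subfamilies per repeat class, 3 features per direction of each interaction, and the 6 largest and 6 smallest ratios between the DOX libraries. A few genes that these rules name are not reported here. Other named features were chosen after their values were seen.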

Additional observations from a re-analysis of the deposited data

Results flagged for a closer look

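The test of the difference itself picked out the DOX effect of the WT pLV2 lines against that of WT in 39 genes and 500 repeat subfamilies. Differences are the mean log2 effect of both pLV2 lines minus the WT effect. Cbl, Arap2 and Ddit4l had the smallest p among genes with a higher pLV2 effect, at 1.08, 1.80 and 2.62. On the scale of the fit over 24 libraries, Arap2 was at 20.2 and 19.9 CPM without DOX and 38.7 and 25.2 CPM with DOX in WT. In the pLV2 lines it was at 7.65 to 12.2 CPM without DOX, and with DOX at 37.0 and 38.8 CPM in line 1 and 74.4 and 62.2 CPM in line 2. Ddit4l, a stress-responsive gene, was at 8.68 and 8.39 against 36.9 and 17.1 CPM in WT, and at 2.95 to 3.76 against 47.1 to 82.5 CPM in the pLV2 lines. Both genes thus started lower in the pLV2 lines. Within WT, Cbl and Ddit4l did not pass (adjusted p = 0.0711 and 0.0507 in edgeR), but did with the replicate block (adjusted p = 0.0302 and 0.0163). Arap2 did not pass within WT either (adjusted p = 0.229 in edgeR). The 2 genes with a lower pLV2 effect were 1810014B01Rik, at -1.41, and Tmem39a, at -0.49, which did not pass in WT. For Zfp365 and Ptpn14, which fell in WT, the differences were 1.09 and 0.96. Among repeats, LTRIS_Mm, ERVB4_1C-LTR_Mm and MMVL30-int had the smallest p, at 1.68, 1.86 and 1.51. On the same scale, LTRIS_Mm was at 13.1 and 12.7 CPM without DOX and 14.1 and 12.03 CPM with DOX in WT, and at 6.22 to 7.39 against 16.3 to 27.96 CPM in the pLV2 lines. MMVL30-int, which rose in WT, went from 32.9 and 35.4 to 63.3 and 47.9 CPM there, and from 24.7 to 29.5 CPM up to 87.5 to 191 CPM in the pLV2 lines.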

How the results depend on the processing

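The direction of DOX in WT was the same in every alternative for all 538 genes and 88 repeat subfamilies that could be fitted in it. The groups did not overlap in any of these, so leaving out 1 library could hardly reverse it. The numbers called did change. Genes changed by DOX numbered 538 (517 up, 21 down), and 754 in DESeq2 (712 up, 42 down), 1198 in the fit over all 24 libraries (996 up, 202 down), 1083 with no filter on low counts (984 up, 99 down) and 1 in the fit on only the WT libraries. Repeat subfamilies numbered 88, and 138 in DESeq2, 200 over all 24 libraries, 208 with no filter, 35 on only the WT libraries and 57 with a log2 fold change of at least 1 beside the adjusted p. Leaving out 1 WT library gave 2 to 641 genes and 2 to 168 subfamilies, where the lone library is assumed to vary like the others. For the WT pLV2 lines against WT, the 39 genes became 128 in DESeq2 and 242 with no filter, and 7 to 134 when a WT library was left out. The 500 subfamilies became 384 with no filter and 363 to 450 when a WT library was left out. For DUXBL-KO against WT, the 0 genes became 1 in DESeq2 and 11 with no filter, and the 0 subfamilies became 4 with no filter. The cause of these differences was not tested. With the replicate number as a block, 929 genes (797 up, 132 down) and 152 subfamilies changed with DOX in WT, all 538 and 88 among them, and 30 genes and 496 subfamilies differed for pLV2. The block ended no call of DOX in WT. Depth limits the genes with 0 to 3 uninduced counts, whose folds are bounds or have wide counting intervals.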
